A study of Mus musculus with 26 samples.

Results

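This report compares the ascending aorta with the descending aorta of untreated wild-type (WT) mice across all genes. The comparison uses 8 of the 26 libraries of the study, chosen by their labels for genotype, region and treatment: 4 from the ascending and 4 from the descending aorta. The WT mice were littermates of male Fbn1 C1041G/+ mice, which carry 1 mutated copy of the fibrillin-1 gene and serve as a mouse model for Marfan syndrome. The 8 untreated libraries of C1041G/+ mice, 4 from each region, entered the same fit and serve here only as a second measurement of each region difference. The labels give neither age nor strain background, and name the sex of the C1041G/+ mice. Within each region the WT libraries carry the numbers 1, 3, 5 and 7, and a library is called here by its region and number. The labels do not say which libraries came from separate animals, so p-values measure the spread between these libraries.

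The wall of the aorta is built along its whole length from smooth muscle, elastic lamellae and an endothelial lining, but its smooth muscle comes from different embryonic sources. Near the heart it derives from the second heart field and the cardiac neural crest, and in the thoracic descending aorta from the paraxial mesoderm of the somites. Hox genes, which encode homeodomain transcription factors and lie in 4 clusters, are switched on along the body axis in the order in which they sit in a cluster, so that genes late in the order mark more posterior tissue. GATA, HAND and T-box factors are regulators of the heart and of the vessels joined to it.

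Sequencing gave 18613662 to 21741934 counts per ascending library and 17171652 to 19717144 per descending library. Mitochondrial genes held 2.81 to 4.11% of the counts in the ascending and 3.45 to 3.92% in the descending libraries. On the first principal component, with 60.2% of the variance of the 8 libraries, ascending library 1 lay at -32.47, the other ascending libraries at -51.97 to -50.39 and the descending libraries at 43.06 to 51.79. Expression is given as CPM, the count of a gene relative to the library total after scaling between libraries. A gene is called here when the edgeR quasi-likelihood F test gave an adjusted p under 0.05, and log2 fold changes are ascending over descending, with their standard error (SE). A list's count is read against the share of all genes tested that was called in the same direction. Where 5 or fewer members of a list were called in a direction they are named, some of them outside the naming rule and so chosen after their values were seen. In whole tissue, fewer cells of a type and less RNA per cell cannot be told apart.

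Smooth muscle markers marked all 8 libraries as arterial wall, while markers of heart muscle and of mesothelium, the cell layer that covers organs, separated the regions. The score of a list is the mean log2 CPM of its members. The smooth muscle score was 8.48 to 8.64 in ascending and 8.37 to 8.59 in descending libraries. Acta2, which encodes the actin of smooth muscle, stood at 11457 ± 1502 CPM (SD, n = 4) in the ascending and 12679 ± 967 CPM in the descending aorta. The heart muscle score was 2.27, 4.54, 3.64 and 3.16 in ascending libraries 1, 3, 5 and 7, and 0.84 to 1.09 in descending libraries. The mesothelial and epicardial score was 4.98 to 5.19 against 2.13 to 2.65. Neither of the last 2 scores overlapped between regions, so that region and content of these tissues cannot be told apart by the design.

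Promoter stretches are shown for 4 transcription factor genes called between regions, Hand2 and Tbx20 on the ascending and Hoxb8 and Nkx2-3 on the descending side. They were picked among factors with an available stretch, which some leading ones, such as Gata4 and Hoxb7, lacked. Each is the 250 bases before the start of transcription, 5′ to 3′, from RefSeq, build GRCm38.p6. Capitals mark matches, on either strand, to the letters AGATAA (known from GATA factors), TAATTA (a homeodomain-type motif), TATAAA (the core of many promoters), GGGCGG (a GC box) and CCAAT (a promoter element named for its letters). The stretches lie at chr8:57320733-57320982, chr9:24774304-24774553 (reverse strand), chr11:96281655-96281904 and chr19:43612075-43612324.
Hand2: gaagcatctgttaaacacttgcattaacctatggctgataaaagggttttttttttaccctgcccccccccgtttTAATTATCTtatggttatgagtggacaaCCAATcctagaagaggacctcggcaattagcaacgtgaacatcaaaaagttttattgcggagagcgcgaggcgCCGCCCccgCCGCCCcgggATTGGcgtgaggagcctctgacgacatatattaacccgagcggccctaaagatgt
Tbx20: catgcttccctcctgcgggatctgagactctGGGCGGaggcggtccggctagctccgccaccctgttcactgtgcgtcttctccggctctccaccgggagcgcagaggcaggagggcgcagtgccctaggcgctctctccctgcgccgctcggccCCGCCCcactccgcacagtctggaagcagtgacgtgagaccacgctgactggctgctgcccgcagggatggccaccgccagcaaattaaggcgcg
Hoxb8: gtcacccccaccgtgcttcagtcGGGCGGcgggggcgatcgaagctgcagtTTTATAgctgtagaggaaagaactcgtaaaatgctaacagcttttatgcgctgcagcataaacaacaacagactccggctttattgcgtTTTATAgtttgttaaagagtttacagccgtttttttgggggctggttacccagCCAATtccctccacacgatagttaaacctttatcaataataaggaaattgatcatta
Nkx2-3: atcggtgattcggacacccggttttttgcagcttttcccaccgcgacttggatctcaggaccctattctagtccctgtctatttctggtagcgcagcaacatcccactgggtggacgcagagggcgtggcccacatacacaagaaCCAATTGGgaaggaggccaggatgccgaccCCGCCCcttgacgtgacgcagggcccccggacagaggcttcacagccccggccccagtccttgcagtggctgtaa
The Hand2 stretch holds TAATTA at 175 to 170 bases before the start, overlapping by 3 letters with AGATAA, read on the other strand, at 172 to 167. Of 32817 promoter stretches of the same length, 4.85% hold TAATTA, 9.99% hold AGATAA, 12.4% hold TATAAA, 32.7% hold GGGCGG and 33.8% hold CCAAT. The Hoxb8 stretch holds TATAAA at 199 to 194 and at 110 to 105 bases before the start, both on the other strand. In the Nkx2-3 stretch 2 CCAAT matches on opposite strands overlap, at 105 to 101 and at 102 to 98. Of the 15 genes with the largest differences on each side outside the tissue marker lists, 8 had such a stretch. None of these stretches held TAATTA or AGATAA. A match is a description of letters and shows no binding.

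Across all genes, 1741 of 15645 genes tested (11.1%) were called between regions. Of these, 1223 (7.82% of those tested) were higher in the ascending and 518 (3.31%) in the descending aorta. At least 2-fold differences were called for 776 genes (4.96%) on the ascending and 195 (1.25%) on the descending side, and at least 10-fold differences for 253 and 27. The 4 and 4 libraries did not overlap for 2272 genes (14.5%), among them 1530 of the called genes. In 1681 of the called genes (96.6%) all 4 pairs of same-numbered libraries differed in the direction of the call. The calls were made from the same libraries, so this share is no separate support for them. The median log2 fold change of all genes tested was -0.01. With the library number as a replicate block the fit called 2424 genes, 1567 higher in the ascending and 857 in the descending aorta. A fit with the heart score as covariate, a score that itself differs by region, is called here the heart-adjusted fit. It called 355 genes, 285 higher in the ascending and 70 in the descending aorta. Both fits changed the number of calls over all genes. A list's count in either is read against that fit's own totals. An opposite-strand gene overlaps 51 of the 202 genes named here, and the strand setting of the counting is not given in the sources used here, so reads of such pairs may be mixed.

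**Figure D1:**
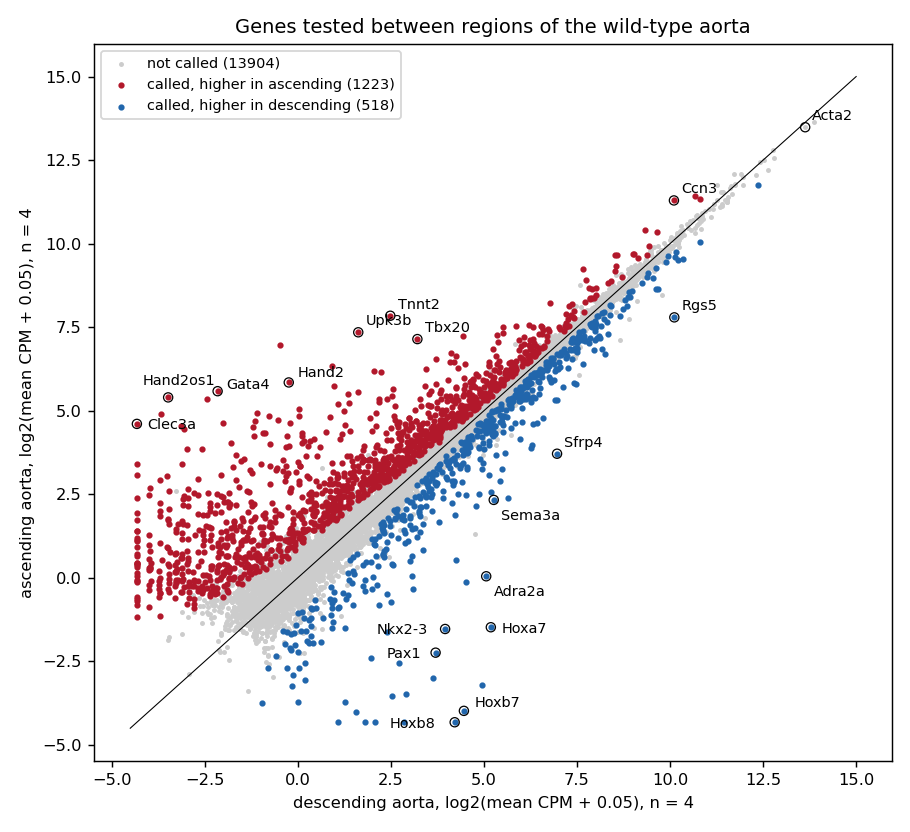
Mean level of each gene tested in the ascending (vertical axis) against the descending aorta (horizontal axis), both as log2(mean CPM + 0.05) over 4 libraries; the line marks equal levels. The 1223 genes called higher in the ascending aorta include Gata4, Hand2 and Tbx20 far above the line, the 518 called higher in the descending aorta include Hoxb8, Hoxb7 and Hoxa7 far below it, and Acta2 lies close to it.

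Hox genes marked the descending aorta. Of 39 Hox genes, 23 passed the count filter, and 18 of these were higher in the descending aorta, 17 of them at least 2-fold, while none was higher in the ascending aorta. Over all genes tested 3.31% were called in that direction. The median log2 fold change of the 23 was -4.96. Among the 15 largest differences on the descending side by the naming rule, 12 belonged to the Hox clusters, 11 Hox genes and the antisense gene Hoxb5os.

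The 8 tested genes of the Hoxb cluster on chromosome 11 were all higher in the descending aorta. Hoxb8 (chromosome 11, 96281905 to 96285315) stood at 17.6, 18.4, 16.9 and 21.1 CPM in descending libraries 1, 3, 5 and 7 and had no count in any ascending library. With 0 read as up to 3 counts over the 4 libraries, it was at least 507-fold higher in the descending aorta. Its neighbours Hoxb9 (5.998 to 8.76 CPM, no ascending count) and Hoxb7 (18.1 to 25.5 CPM, 1 ascending count) behaved alike, Hoxb9 being at least 197-fold higher and Hoxb7 1796-fold, with a 95% counting interval of 322 to 70968. Hoxb6 stood at 29.4, 28.6, 32.1 and 33.3 CPM against 0.0534, 0.177, 0 and 0 CPM, and Hoxb5 at 11.3, 12.5, 12.8 and 12.7 CPM against 0, 0.0442, 0.255 and 0 CPM. The descending libraries thus lay close together at each of these 5 genes, and the ascending libraries were at or near 0.

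The earlier genes of the same cluster were present in both regions. Hoxb4 stood at 7.73 to 12.9 CPM in ascending and 18.5 to 25.8 CPM in descending libraries (log2 fold change -1.28, SE 0.17, adjusted p = 2.47e-05). Hoxb3 and Hoxb2 differed by log2 fold changes of -1.19 and -0.95 (adjusted p = 0.00357 and 9.10e-04), with no overlap between the regions. Hoxb3os, a noncoding gene whose exons overlap those of Hoxb2 and Hoxb3 on the opposite strand, went the other way, with 4.57 ± 0.639 CPM in the ascending and 1.82 ± 0.262 CPM in the descending aorta (log2 fold change 1.32, SE 0.22, adjusted p = 3.29e-04). Hoxb5os, which overlaps Hoxb5, followed it at 0 to 0.102 against 5.06 to 6.75 CPM. Reads of these overlapping pairs may be mixed.

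The Hoxa cluster on chromosome 6 showed the same order, with Hoxa5 at the step between shared and descending genes. Hoxa2, Hoxa3 and Hoxa4 were expressed in both regions, with means of 6.91, 22.4 and 5.70 CPM in the ascending and 7.13, 26.9 and 5.32 CPM in the descending aorta, and none was called (adjusted p = 0.94, 0.56 and 0.89). Hoxa5 was intermediate, at 6.94, 6.801, 4.33 and 4.41 CPM against 29.3, 31.6, 28.6 and 27.3 CPM, a 5.19-fold difference (log2 fold change -2.38, SE 0.17, adjusted p = 1.92e-08). From Hoxa6 on the ascending aorta was nearly empty. Hoxa7 (chromosome 6, 52214491 to 52221854) stood at 0.320, 0.618, 0.153 and 0.144 CPM in ascending and 32.4, 35.5, 36.5 and 40.96 CPM in descending libraries, 115-fold higher. Hoxa6 had 1 ascending count against 2.37 to 3.85 CPM in the descending libraries, a ratio of 237-fold, with a 95% counting interval of 42.1 to 9415. Hoxa9 and Hoxa10 were 53.4-fold and 26.5-fold higher in the descending aorta.

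Hoxc genes on chromosome 15 were found almost only in the descending aorta, and at lower levels. Hoxc6 stood at 8.05, 7.73, 5.24 and 8.70 CPM and Hoxc8 at 4.41, 3.36, 2.51 and 6.48 CPM in descending libraries, against 3 and 0 ascending counts. Hoxc4 and Hoxc5 reached 1.88 to 2.61 and 0.559 to 1.47 CPM, each against 2 ascending counts. All 4 were called. The gene model of Hoxc5 spans those of Hoxc6 and Hoxc8 on the same strand, so its count is uncertain. The Hoxd cluster on chromosome 2 was set apart by Hoxd8, which was present in both regions at 0.907 to 1.90 and 2.90 to 5.50 CPM (log2 fold change -1.45, SE 0.29, adjusted p = 0.00183), and Hoxd9, whose regions overlapped at 0.213 to 0.883 and 0.738 to 1.53 CPM (adjusted p = 0.22). The other 16 Hox genes were removed by the count filter: 10 had no count in any WT library, and the other 6, among them Hoxd3, had 1 to 7 counts over the 8 libraries. No gene of groups 11 to 13 had more than 1 count, and Hoxa10 was the called gene of the highest group.

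**Figure D2:**
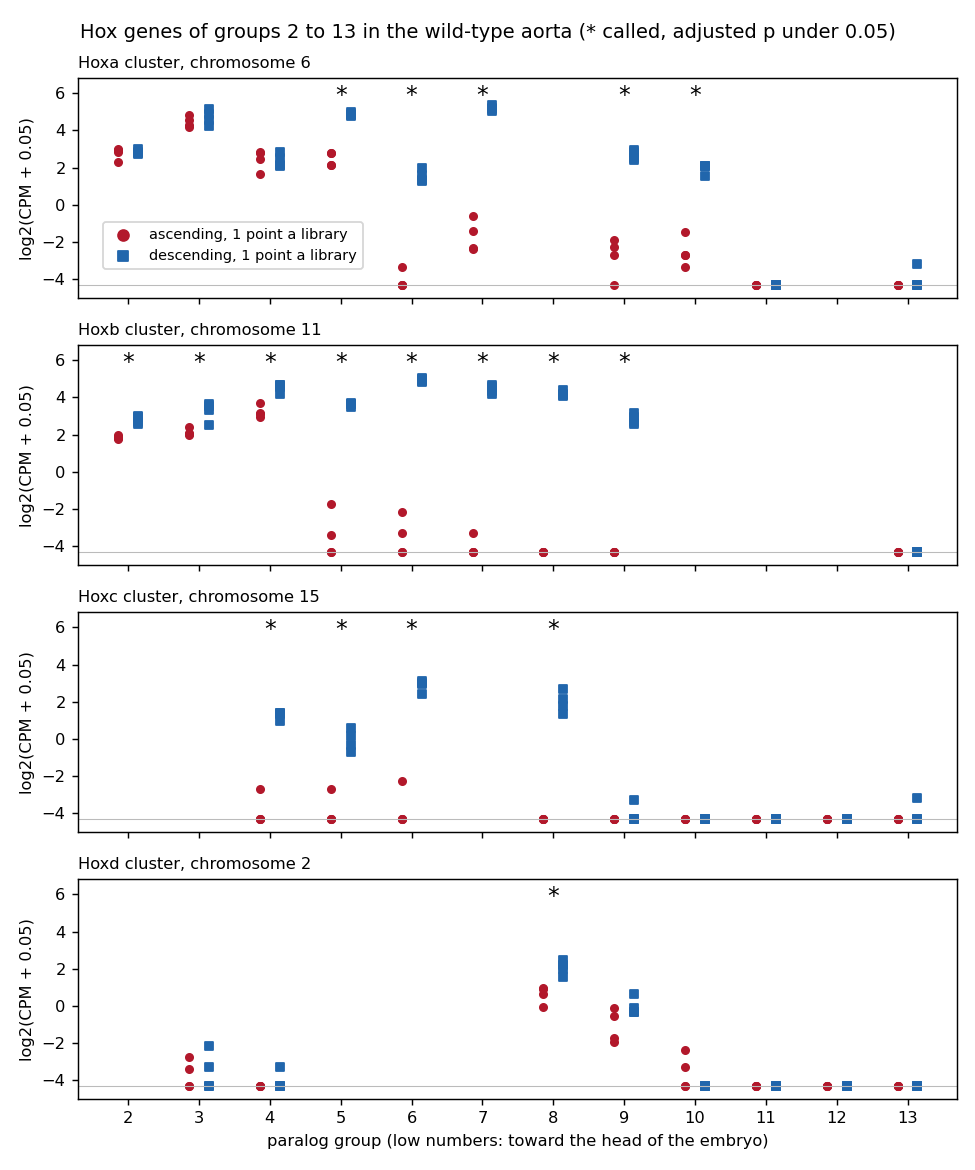
Level of the Hox genes of groups 2 to 13 by library, as log2(CPM + 0.05), with 1 panel per cluster and the paralog group (position in the order along the body axis) on the horizontal axis; circles are ascending and squares descending libraries, the grey line marks 0 counts, and asterisks mark called genes. Circles and squares overlap at Hoxa2 to Hoxa4, while from Hoxb5 to Hoxb9, Hoxa6 to Hoxa10 and Hoxc4 to Hoxc8 the circles lie at or near the grey line and the squares well above it.

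The cofactors that bind DNA with Hox proteins differed less in these libraries. Over all genes tested 7.82% were called higher in the ascending aorta. Of 9 tested Hox cofactor and ParaHox genes 2 were called, both higher in the ascending aorta: Meis2 at 57.2 ± 5.80 against 36.2 ± 3.04 CPM (log2 fold change 0.66, SE 0.10, adjusted p = 1.40e-04) and Meis1 at 34.6 ± 4.13 against 24.1 ± 2.28 CPM (log2 fold change 0.52, SE 0.13, adjusted p = 0.0101).

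Factors of paraxial and lateral mesoderm went both ways. Of 22 tested members of that list 7 were higher in the descending and 6 in the ascending aorta (3.31% and 7.82% of all genes). In each direction 6 were at least 2-fold, and the median log2 fold change was -0.09. Those higher in the ascending aorta were Tcf21 and Osr2, described further on, and Meox1, Tlx1, Tbx4 and Zic1, named outside the rule after their values were seen. Pax1 (chromosome 2, 147361925 to 147393295), a paired-box factor of the sclerotome from which vertebrae form, stood at 13.6, 14.03, 7.75 and 16.6 CPM in descending and 0.107, 0.442, 0.0510 and 0.0479 CPM in ascending libraries, 76.6-fold higher. Its relative Pax9 stood at 4.38 to 6.96 against 0.907 to 1.72 CPM (log2 fold change -2.14, SE 0.24, adjusted p = 5.40e-06). Nkx2-3 (chromosome 19, 43612325 to 43615892), a homeodomain factor known from the gut wall and spleen, stood at 19.04, 14.5, 15.5 and 12.9 CPM in descending and 0.534, 0, 0.459 and 0.192 CPM in ascending libraries, 55.0-fold higher. No library of one region reached the range of the other at these genes. Foxf2, a forkhead factor of mesenchyme, was 7.73-fold higher at 1.87 to 2.67 against 0.107 to 0.431 CPM. Prrx1, a homeodomain factor of limb and head mesenchyme, was abundant in both regions at 108 ± 11.3 and 180 ± 22.5 CPM (log2 fold change -0.73, SE 0.15, adjusted p = 0.00268). The noncoding Foxd2os, 2.15-fold higher in the descending aorta (adjusted p = 0.0276), lost its call with the replicate block and when any of ascending libraries 1 and 7 or descending libraries 1 and 7 was left out (adjusted p = 0.0502 with the block).

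Many transcription factors of the heart field were higher in the ascending aorta. Of 30 tested cardiac and second heart field factors 16 were higher in the ascending aorta, 15 of them at least 2-fold, and 4, among them Eya1, Hey2 and Foxc2, in the descending aorta, with a median log2 fold change of 1.01. Over all genes tested 7.82% were called in the first and 3.31% in the second direction. Gata4 (chromosome 14, 63198922 to 63271692), a zinc finger factor needed for heart formation, stood at 31.2, 44.3, 61.9 and 54.4 CPM in ascending libraries 1, 3, 5 and 7 and 0.218, 0.102, 0.117 and 0.264 CPM in descending libraries, 275-fold higher (log2 fold change 8.05, SE 0.31, adjusted p = 1.79e-11). Its relative Gata5 stood at 5.66, 6.89, 6.78 and 6.42 CPM, with 1 count in the 4 descending libraries. Every ascending library was far above every descending library at both genes. Gata6, another member of the family, named outside the rule after its values were seen, stood at 101 ± 7.90 and 101 ± 8.57 CPM (log2 fold change 0.01, SE 0.08, adjusted p = 0.98).

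Hand2 and the noncoding Hand2os1 were 2 further ascending genes of this kind, and they lie side by side. Hand2 (chromosome 8, 57320983 to 57324633), a basic helix-loop-helix factor of the heart and the pharyngeal arches, stood at 40.6, 60.99, 58.4 and 69.99 CPM in ascending and 0.925, 0.864, 0.233 and 1.16 CPM in descending libraries, 71.7-fold higher. Hand2os1 (chromosome 8, 57281117 to 57324233, opposite strand) stood at 34.3, 52.8, 36.9 and 44.6 CPM against 3 counts in the 4 descending libraries, a ratio of 1055-fold, with a 95% counting interval of 361 to 5118. In RefSeq the 2 genes start 124 bases apart and run in opposite directions, so the Hand2 stretch printed above also holds the start of Hand2os1. Their exons overlap in the annotation, and reads of the 2 genes may be mixed. Hand1, the second HAND factor, had 1.39 to 1.65 CPM in ascending libraries and no descending count (at least 37.8-fold higher).

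Homeodomain, T-box and zinc finger factors of other families were also higher on the ascending side. Tbx20 (chromosome 9, 24718138 to 24774303), a T-box factor of the developing heart, stood at 72.5, 124, 177 and 192 CPM in ascending and 8.27, 11.1, 10.4 and 7.12 CPM in descending libraries, 15.4-fold higher (log2 fold change 3.94, SE 0.37, adjusted p = 4.29e-06). Tbx2 was 2.86-fold and Six2 20.3-fold higher, each without overlap. Nkx2-5, the homeodomain factor of heart muscle precursors, stood at 0.960, 3.003, 2.91 and 1.73 CPM and had no descending count. Sall1 (1.23 to 3.89 CPM) and Sall3 (1.01 to 5.37 CPM), zinc finger factors, had no descending count either. Isl1, the marker of the second heart field, did not pass the test at 8.75 ± 1.85 and 11.3 ± 2.29 CPM (log2 fold change -0.37, SE 0.20, adjusted p = 0.34) and was chosen after its values were seen.

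Factors of the neural crest and pharyngeal arches followed, at lower levels. Of 17 tested members 7 were higher in the ascending aorta, 6 of them at least 2-fold, and 2, Prrx1 and Twist1, in the descending aorta (median log2 fold change 0.83). Msx1, a homeodomain factor, stood at 21.1 to 30.3 CPM in ascending and 11.5 to 13.97 CPM in descending libraries (log2 fold change 1.04, SE 0.11, adjusted p = 4.08e-06). Tfap2a, a regulator of crest formation, stood at 0.969 to 2.16 against 0.0527 to 0.102 CPM, 22.1-fold higher. Sox9, which drives cartilage genes, stood at 6.83, 10.8, 15.8 and 16.4 CPM in ascending and 2.18 to 2.79 CPM in descending libraries. Lhx6 and Alx1, homeodomain factors of the face and arches, were low in both regions, at 1.07 to 2.65 and 0.765 to 0.927 CPM in ascending and 0 to 0.233 and 0 to 0.102 CPM in descending libraries.

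Tcf21 (chromosome 10, 22817281 to 22820174), a basic helix-loop-helix factor of the epicardium and of adventitial fibroblasts, stood at 26.9, 25.7, 40.02 and 30.1 CPM in ascending and 0.707, 0.407, 0.291 and 0.264 CPM in descending libraries, 73.1-fold higher (log2 fold change 6.18, SE 0.25, adjusted p = 1.79e-11). Osr2, a zinc finger factor, was 21.7-fold higher. H19, an imprinted noncoding RNA, stood at 5.02, 46.8, 46.9 and 48.0 CPM in ascending libraries, so that library 1 lay apart from the other 3, against 1.42 to 2.56 CPM. These factors differed by region, as did the heart muscle and mesothelial scores given above, and the part of mesothelium in them was not tested. The heart-adjusted fit called 11 heart field factors, 5 mesoderm factors and 1 crest factor higher in the ascending aorta, and 11 Hox genes and 4 mesoderm factors higher in the descending aorta. Over all genes this fit called 285 and 70 in these directions. In it Gata4 differed by 7.57 (log2, adjusted p = 7.95e-08), Hand2 by 5.73 (adjusted p = 4.87e-07), Tbx20 by 2.95 (adjusted p = 0.0206) and Hoxb8 by -10.86 (adjusted p = 0.00403).

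**Figure D3:**
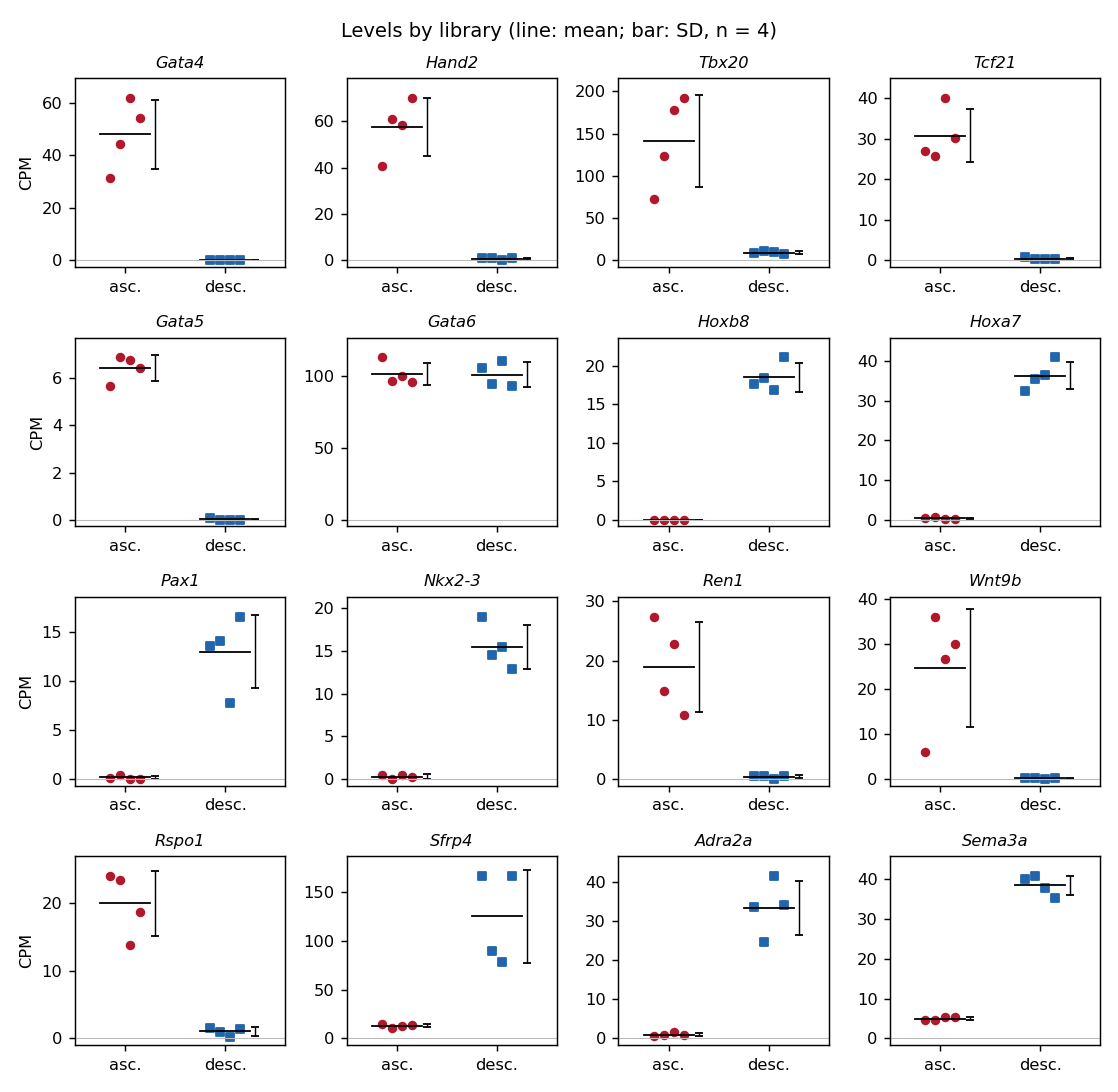
CPM by library for 16 genes in ascending (circles) and descending (squares) wild-type aorta, with the mean as a line and the SD (n = 4) as a bar beside it, each panel on its own linear axis from 0. Gata4, Hand2, Tbx20, Tcf21, Gata5, Ren1, Wnt9b and Rspo1 have all circles above all squares, Hoxb8, Hoxa7, Pax1, Nkx2-3, Sfrp4, Adra2a and Sema3a the reverse, and Gata6 overlaps.

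Of the other genes with the largest differences on the ascending side, several were absent from the descending libraries. The 15 largest differences by the naming rule had log2 fold changes of at least 8.30, and 11 of the 15 had no descending count, so the folds of those are lower bounds. Clec3a (chromosome 8, 114418086 to 114425846), a C-type lectin of cartilage, stood at 8.70, 26.4, 39.8 and 22.4 CPM and was at least 607-fold higher. Chrm2, the muscarinic acetylcholine receptor of the heart, stood at 2.08, 8.17, 6.42 and 3.98 CPM (at least 131-fold). Fgfbp1, a carrier protein of fibroblast growth factors, stood at 4.32, 2.74, 3.31 and 4.79 CPM (at least 93.0-fold). These levels were low to moderate, and every ascending library had counts.

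Aqp8, a water channel, stood at 0.267, 3.45, 2.65 and 4.07 CPM, Pcdh15, a protocadherin, at 1.28, 2.03, 2.6 and 3.07 CPM and Ptprt, a receptor phosphatase, at 0.694, 2.43, 2.19 and 2.06 CPM, each with no descending count. A2m, a protease inhibitor of plasma, stood at 2.24, 8.35, 5.05 and 6.28 CPM with 1 descending count. Pirt, a membrane protein of sensory neurons, reached 0.640 to 2.61 CPM. Pirt had no descending count either. Ascending library 1 was the lowest of the 4 at each of these 5 genes, as it was for the heart muscle score.

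On the descending side the only gene of the leading 15 that is neither a transcription factor nor in a Hox cluster was Slc26a4, an anion exchanger, at 2.18, 1.78, 1.63 and 2.74 CPM and with no ascending count (at least 57.0-fold higher).

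Smooth muscle contractile genes were called about as often as all genes, and the main ones were not among those called. Of 47 tested members 5 were higher in the ascending and 2 in the descending aorta, 14.9% together against 11.1% of all genes, and the median log2 fold change was -0.03. Acta2, Myh11, the smooth muscle myosin heavy chain, and Cnn1, calponin, all named outside the rule, had log2 fold changes of -0.15, 0.02 and -0.16 (adjusted p = 0.55, 0.97 and 0.48). The members called were the small heat shock protein Hspb6 (158 ± 20.9 against 88.8 ± 9.20 CPM), the intermediate filament desmin, Des (156 ± 11.1 against 94.6 ± 20.99 CPM), Sorbs2 (log2 fold change 0.65, SE 0.11, adjusted p = 4.85e-04), Smtnl2 (log2 fold change 1.05, SE 0.18, adjusted p = 5.48e-04) and Lmod2, a leiomodin of heart and skeletal muscle (log2 fold change 5.67, SE 0.97, adjusted p = 6.43e-04). Actg2, the actin of visceral smooth muscle, and Ramp1, a receptor partner, were the 2 higher in the descending aorta, Actg2 at 255 ± 38.8 against 167 ± 22.5 CPM (log2 fold change -0.61, SE 0.13, adjusted p = 0.00247). Without descending library 7 there were 4 such calls. Lmod2 and Des are also expressed in heart muscle, and the heart-adjusted fit called 1 contractile gene.

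Among elastic fibre genes the main structural proteins were not called, and several fibulins and microfibril proteins were. Eln, which encodes elastin, and Fbn1, both named outside the rule, stood at 4704 ± 1240 and 406 ± 89.3 CPM in the ascending and 6307 ± 1980 and 377 ± 50.1 CPM in the descending aorta (adjusted p = 0.31 and 0.78). Of 31 tested members 8 were higher in the ascending and 2, Mmrn2 and Emilin2, in the descending aorta (7.82% and 3.31% of all genes). The 2 became 6 with the replicate block and 1 without any of ascending libraries 3, 5 and 7 and descending libraries 3 and 7. Efemp1, fibulin-3, stood at 102, 83.2, 74.8 and 90.6 CPM in ascending and 21.9, 15.9, 13.7 and 21.4 CPM in descending libraries, 4.79-fold higher (log2 fold change 2.27, SE 0.16, adjusted p = 4.45e-08). Adamtsl2, a microfibril-binding protein, was 5.16-fold and Ltbp2, a latent TGF-beta binding protein, 2.24-fold higher, with no overlap. Fbn2, the fibrillin of the embryo, stood at 0.747 to 1.63 CPM with 1 descending count, and Mfap2, a microfibril glycoprotein, was 1.87-fold higher. Elastic fibre calls numbered 4 in the heart-adjusted fit.

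Several cartilage collagen chains were higher in the ascending aorta while the main collagens of the wall were not called. Of 37 tested chains 7 were higher in the ascending and 1, Col6a2, in the descending aorta (7.82% and 3.31% of all genes). The median log2 fold change was 0.22, and the descending count became 4 with the replicate block. Col1a1 and Col3a1, named outside the rule, had adjusted p = 0.38 and 0.93. Col8a1, a short-chain collagen of vessel walls, stood at 39.9, 35.2, 66.6 and 53.7 CPM in ascending and 18.1, 14.3, 11.8 and 13.1 CPM in descending libraries (log2 fold change 1.77, SE 0.19, adjusted p = 4.40e-06). Col11a2, Col9a3, Col11a1 and Col2a1, chains of cartilage collagens, were 5.37-fold, 5.31-fold, 11.6-fold and 17.6-fold higher. Col9a1, another cartilage chain, was not called at 3.55 ± 2.37 against 1.07 ± 0.482 CPM (adjusted p = 0.0914). Col2a1 ranged from 0.267 to 6.07 CPM among the ascending libraries, the lowest value being in library 1, which overlapped the descending range of 0 to 0.350 CPM. A single chain, on the ascending side, was called in the heart-adjusted fit.

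Proteoglycans and matricellular proteins were called on both sides, more of them higher in the ascending aorta. Of 52 tested members 19 (13 of them at least 2-fold) were higher in the ascending and 5, Tnc, Smoc1, Fn1, Ccn5 and Sparc, in the descending aorta. The shares over all genes were 7.82% and 3.31%. The 5 became 8 with the replicate block, and the median log2 fold change was 0.56. Epyc, a small leucine-rich proteoglycan of cartilage, stood at 18.7, 31.2, 29.8 and 22.95 CPM in ascending and 0.163, 0.458, 0.524 and 0.474 CPM in descending libraries, 64.0-fold higher. Acan, which encodes the large proteoglycan aggrecan, stood at 54.5, 47.6, 52.6 and 52.8 against 20.5, 27.6, 26.98 and 25.5 CPM (log2 fold change 1.05, SE 0.09, adjusted p = 2.37e-07). Thbs4, a thrombospondin, ranged from 3.63 to 27.1 CPM in ascending libraries, lowest in library 1, against 0.117 to 0.458 CPM. The descending aorta had more Tnc, tenascin-C, at 123, 106, 140 and 116 CPM against 38.1, 25.6, 51.1 and 43.8 CPM (log2 fold change -1.61, SE 0.17, adjusted p = 3.19e-06), and more Smoc1, a calcium-binding matrix protein, at 406 ± 20.8 against 227 ± 20.02 CPM. The heart-adjusted fit called 3 of the list on the ascending and 1 on the descending side.

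Among 49 tested matrix proteases and inhibitors 8 were higher in the ascending and 3, Mmp17, Serpine2 and Timp4, in the descending aorta (7.82% and 3.31% of all genes). Their median log2 fold change was 0.08. The 3 became 6 with the replicate block. The metalloproteinases Mmp12 and Mmp13 were 7.90-fold and 5.41-fold higher in the ascending aorta, at 5.23 to 7.24 and 2.20 to 3.71 CPM. Adamts5 and Adamts7, which cleave proteoglycans and other matrix proteins, were 1.57-fold and 2.85-fold higher. Mmp17, a membrane-anchored metalloproteinase of smooth muscle, was higher in the descending aorta at 225 ± 22.3 against 131 ± 7.92 CPM, as was Serpine2, a serine protease inhibitor, at 1187 ± 96.3 against 735 ± 134 CPM. Protease calls were 2 in the heart-adjusted fit.

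Wnt ligands and secreted modulators of Wnt signals differed in both directions. Of 49 tested Wnt pathway genes 15 were higher in the ascending and 4, Sfrp4, Sfrp1, Fzd4 and Wnt10b, in the descending aorta (7.82% and 3.31% of all genes). Their median log2 fold change was 0.12. The 4 became 8 with the replicate block. The ligand Wnt9b stood at 5.98, 36.1, 26.8 and 29.9 CPM in ascending and 0.218, 0.153, 0.117 and 0.316 CPM in descending libraries, 126-fold higher, with ascending library 1 well under the other 3. Wnt4 was 25.9-fold higher, and Wnt7b reached 0.867 to 2.93 CPM with no descending count. Rspo1, which enhances Wnt signals, stood at 24.01, 23.5, 13.8 and 18.7 against 1.52, 1.02, 0.175 and 1.42 CPM, 19.1-fold higher, and the secreted inhibitor Wif1 at 106, 135, 212 and 184 against 45.2, 46.3, 47.2 and 44.7 CPM. Sfrp4, another secreted Wnt antagonist, had the opposite pattern, at 166, 89.3, 78.5 and 166 CPM in descending and 14.8, 10.95, 12.6 and 13.9 CPM in ascending libraries, 9.66-fold higher in the descending aorta (log2 fold change -3.26, SE 0.26, adjusted p = 3.82e-07).

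In the TGF-beta superfamily 9 of 47 tested genes were higher in the ascending and 3, Bmp6, Lrrc32 and Acvrl1, in the descending aorta (7.82% and 3.31% of all genes). Their median log2 fold change was 0.05. The ligands Bmp3 (51.2 ± 4.25 against 19.1 ± 5.65 CPM), Bmp7 (1.57 ± 0.450 against 0.398 ± 0.194 CPM) and Inhbb (22.9 ± 3.10 against 8.34 ± 2.45 CPM), and Fst, which encodes the activin antagonist follistatin (16.7 ± 1.59 against 7.61 ± 1.63 CPM), were higher in the ascending aorta. Bmp6 was higher in the descending aorta, at 273 ± 79.4 against 150 ± 40.8 CPM (log2 fold change -0.86, SE 0.20, adjusted p = 0.00780), as was Lrrc32, which holds latent TGF-beta at the cell surface, 1.68-fold. Libraries of the regions overlapped at Bmp6, which was not called in a fit of the 8 WT libraries alone. In the heart-adjusted fit 1 gene of the superfamily and 6 Wnt genes were called.

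The retinaldehyde dehydrogenases Aldh1a1, Aldh1a2 and Aldh1a3, which make retinoic acid, were called higher in the ascending aorta, Aldh1a3 with overlap between the regions. Of 26 tested members 9 were higher in the ascending and 1, Rbp4, in the descending aorta (7.82% and 3.31% of all genes), with a median log2 fold change of 0.05. Rbp4, the retinol carrier, lost its call when any of ascending libraries 5 and 7 or descending libraries 1, 3 and 7 was left out. Aldh1a2, the retinaldehyde dehydrogenase of the embryo and the epicardium, stood at 23.5, 16.5, 14.5 and 21.1 CPM in ascending and 1.31, 1.07, 0.991 and 0.791 CPM in descending libraries, 18.1-fold higher. Aldh1a1 stood at 108 to 152 against 22.7 to 52.5 CPM. Stra6, a retinol transporter, Cyp26a1, which breaks retinoic acid down, and Lrat, which stores retinol as esters, were also higher, Lrat with no descending count. For Aldh1a3 the log2 fold change was 0.66 (SE 0.16, adjusted p = 0.00884), and ascending library 1 lay under descending library 1 (12.96 against 14.04 CPM). In C1041G/+ mice Aldh1a3 had the opposite sign and was not called (log2 fold change -0.43, adjusted p = 0.11).

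In the insulin-like growth factor (IGF) list, 4 binding protein genes, Igfbp2 to Igfbp5, were higher in the ascending aorta, while the abundant Igfbp7 (3419 ± 245 against 3164 ± 247 CPM, adjusted p = 0.53) and Igfbp6 (adjusted p = 0.78) were not called. Of 19 tested members of the list 8 were higher in the ascending aorta (7.82% of all genes), 7 at least 2-fold. None was higher in the descending aorta, and the median log2 fold change was 0.88. Igfbp2 stood at 82.3, 84.9, 94.98 and 111 CPM in ascending and 12.6, 12.1, 17.2 and 10.7 CPM in descending libraries (log2 fold change 2.83, SE 0.23, adjusted p = 3.31e-07), Igfbp3 at 29.1, 49.1, 44.9 and 40.6 against 5.99, 5.85, 3.15 and 5.75 CPM (log2 fold change 2.98, SE 0.22, adjusted p = 5.45e-08) and the abundant Igfbp5 at 1472, 1175, 1348 and 1478 against 777, 550, 471 and 775 CPM. Stc2, an inhibitor of the protease that cleaves IGF binding proteins, was 3.51-fold higher, as was that protease itself, Pappa, 2.59-fold. In the heart-adjusted fit 4 genes of the IGF list and 2 retinoic acid genes were called.

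Of 36 hedgehog and FGF pathway genes tested 13 were higher in the ascending and 2, Fgfr2 and Hhip, in the descending aorta (7.82% and 3.31% of all genes). Their median log2 fold change was 0.22. The ligands Fgf10, Fgf9 and Fgf18 were 11.3-fold, 6.78-fold and 2.25-fold higher, at 1.33 to 4.27, 2.73 to 4.11 and 6.37 to 8.74 CPM, and so were the FGF feedback inhibitor Spry1 (2.25-fold) and the FGF target Etv5 (1.92-fold). The receptor Fgfr2 was higher in the descending aorta at 127 ± 18.8 against 76.6 ± 8.31 CPM. The call of Hhip or Fgfr2 was lost in each fit without 1 library, except that without descending library 5. Of 21 Notch pathway genes 4 were higher in the descending aorta, namely the glycosyltransferase Mfng, the receptor Notch4 (46.0 ± 9.06 against 20.5 ± 6.92 CPM), the target Hey2 and the ligand Dll4, and 1 in the ascending aorta, the ligand Jag2. Without descending library 1 the single ascending Notch call became 3, as with the replicate block, and without ascending library 5 or 7 it became 2. The call of Dll4 (adjusted p = 0.0174) was lost when any of ascending libraries 1 and 3 or descending libraries 5 and 7 was left out. In the heart-adjusted fit no Notch gene and 3 hedgehog and FGF genes were called.

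Guidance genes separated the regions in both directions, with a median log2 fold change of 0.04. Of 47 tested members 13 were higher in the ascending and 7 in the descending aorta (7.82% and 3.31% of all genes). The 13 became 8 when any of ascending libraries 5 and 7 or descending libraries 1, 3 and 7 was left out. Sema3a, a secreted semaphorin that repels axons, stood at 39.9, 40.8, 37.6 and 35.2 CPM in descending and 4.64, 4.68, 5.25 and 5.37 CPM in ascending libraries, 7.71-fold higher (log2 fold change -2.94, SE 0.20, adjusted p = 2.04e-08). Epha3, an ephrin receptor, stood at 79.9, 77.2, 57.2 and 92.6 against 15.4, 11.8, 16.4 and 15.1 CPM, 5.30-fold higher. On the ascending side Epha7 was 5.57-fold, Plxnc1, a semaphorin receptor, 3.83-fold, Nrp2, a coreceptor for semaphorins and vascular growth factors, 2.89-fold and Sema6d 2.09-fold higher. Guidance genes had 2 calls in each direction in the heart-adjusted fit.

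Receptors for vasoactive hormones and transmitters were called on both sides. Of 59 tested members 18 were higher in the ascending and 9 in the descending aorta (7.82% and 3.31% of all genes). The median log2 fold change was 0.09, and the descending count became 15 with the replicate block. Adra2a (chromosome 19, 54044151 to 54048982), the alpha-2A adrenergic receptor, stood at 33.5, 24.7, 41.4 and 33.9 CPM in descending and 0.694, 0.839, 1.63 and 0.767 CPM in ascending libraries, 33.9-fold higher (log2 fold change -5.08, SE 0.32, adjusted p = 1.33e-08). Avpr1a, the vasopressin receptor of smooth muscle, stood at 10.2, 10.4, 4.31 and 9.33 against 0.907, 1.02, 0.561 and 0.479 CPM, 11.6-fold higher, and Ptger3, a prostaglandin E receptor, was 3.67-fold higher. On the ascending side stood Chrm2, described above, and S1pr3, a sphingosine-1-phosphate receptor, 7.26-fold higher. Ramp2, which makes the adrenomedullin receptor with its partner, was higher in the descending aorta at 117 ± 14.2 against 60.2 ± 14.2 CPM. Receptor calls came to 3 in the heart-adjusted fit.

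In the renin-angiotensin list 4 of 13 tested genes were called, 2 each way (7.82% and 3.31% of all genes on the ascending and descending side). Ren1, which encodes renin, the protease that starts the cascade, stood at 27.4, 14.8, 22.8 and 10.7 CPM in ascending and 0.490, 0.458, 0.0583 and 0.580 CPM in descending libraries, 45.9-fold higher (log2 fold change 5.53, SE 0.48, adjusted p = 5.71e-07). The 2 genes for the type 1 angiotensin II receptor went opposite ways. Agtr1a stood at 3.68, 2.47, 4.95 and 3.02 CPM in ascending and 1.74, 1.32, 2.10 and 1.69 CPM in descending libraries (log2 fold change 1.04, SE 0.27, adjusted p = 0.0163) and lost its call without ascending library 5 or descending library 3. Agtr1b stood at 0.255 to 0.587 against 0.763 to 1.47 CPM, 3.20-fold higher in the descending aorta. Enpep, which cleaves angiotensin II, was 1.66-fold higher there too.

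Ion channel genes gave 12 of 70 higher in the ascending and 7 in the descending aorta, against 7.82% and 3.31% of all genes. With the replicate block the 2 counts became 20 and 11. Kcnj15 (chromosome 16, 95257558 to 95300260), an inward rectifier potassium channel, stood at 172, 167, 204 and 179 CPM in ascending and 50.2, 39.1, 61.2 and 30.4 CPM in descending libraries, 4.02-fold higher (log2 fold change 2.00, SE 0.15, adjusted p = 6.22e-08). The region difference of this gene was larger in C1041G/+ mice, with a log2 fold change of 5.97 and a genotype by region interaction of -3.97. It was the only gene of 15645 (0.00639%) called in the edgeR interaction test, with 795 at an unadjusted p under 0.05. DESeq2 called 38 genes, edgeR with the replicate block 13, and edgeR without ascending library 1 10. Pln, phospholamban, an inhibitor of the calcium pump of the sarcoplasmic reticulum, and the potassium channel Kcnk5 were 14.03-fold and 4.78-fold higher in the ascending aorta. The calcium pump gene Atp2a3 and the potassium channel genes Kcnc4 and Kcne3 were 1.54-fold, 2.01-fold and 3.33-fold higher in the descending aorta. Channel calls came to 5 in the heart-adjusted fit.

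**Figure D4:**
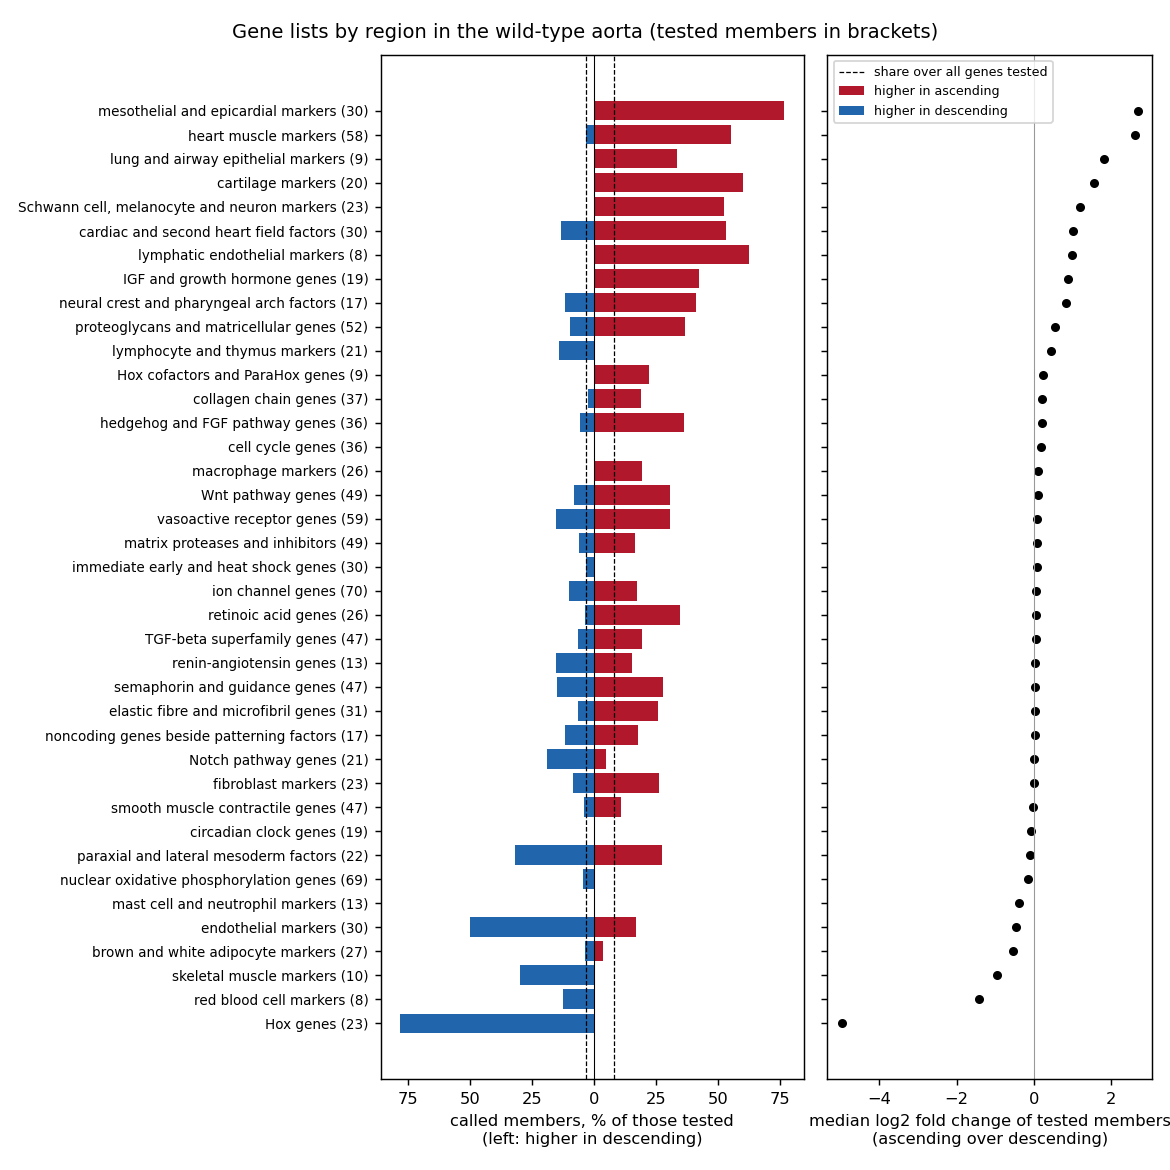
Share of each list's tested members called higher in the ascending (red, right) or descending aorta (blue, left), with dashed lines at 7.82% and 3.31%, the shares over all genes tested, and on the right the median log2 fold change of each list. Hox genes stand at the lower end with a median of -4.96, mesothelial and heart muscle markers at the upper end with 2.69 and 2.61, and most signalling and matrix lists lie near 0.

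Abundant genes were chosen by their CPM per kilobase of exon among called genes of at least 2-fold difference. Except at Clec3a, given above, their folds were lower than at Gata4, Hand2 and Hoxb8. Rgs5, a regulator of G protein signals in smooth muscle and pericytes, stood at 1192, 1331, 923 and 989 CPM in descending and 222, 227, 227 and 211 CPM in ascending libraries, 5.02-fold higher (log2 fold change -2.32, SE 0.14, adjusted p = 3.49e-09). The descending aorta also had more Ccdc3, a secreted protein of fat and endothelium (2.95-fold), Inmt, a methyltransferase (3.19-fold), Tmem158 (3.43-fold), C7, a complement component (2.23-fold), Tgfbi, a matrix protein induced by TGF-beta (2.53-fold), and Cyp1b1, a cytochrome P450 (2.45-fold). Gkn3, Gpsm2 and Fibin were 3.10-fold, 3.13-fold and 2.04-fold higher.

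On the ascending side Ccn3, a matricellular protein of the wall, stood at 2699, 2419, 2360 and 2562 CPM against 1053, 1095, 1237 and 1018 CPM (log2 fold change 1.19, SE 0.08, adjusted p = 1.50e-08). Npy1r, a neuropeptide Y receptor, stood at 215, 186, 133 and 221 against 70.2, 103, 43.3 and 77.5 CPM. Sparcl1, a matrix protein (2.11-fold), Igfbp4 (2.16-fold), Gpx3, a secreted glutathione peroxidase (2.69-fold), Sncg, gamma-synuclein (2.88-fold), and Angptl7 (3.01-fold) were also higher. Wif1, Igfbp2 and Clec3a, given above, completed the 10 genes of this side. The libraries of the regions did not overlap at any of these genes, as the rule that chose them required.

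Markers of other tissues differed in several directions. Of 30 tested mesothelial and epicardial markers 23 were higher in the ascending aorta (7.82% of all genes) and none in the descending aorta. The summed level of the markers was 3319 to 4032 against 1489 to 2064 CPM. Upk3b, a uroplakin of mesothelium, stood at 193, 159, 125 and 175 CPM in ascending and 3.48, 3.41, 1.98 and 3.27 CPM in descending libraries, and Wt1, the Wilms tumour factor of epicardium and mesothelium, at 12.2, 13.7, 9.28 and 15.6 against 0.218, 0.254, 0.175 and 0.422 CPM. Gpm6a and Upk1b were 15.1-fold and 41.02-fold higher. Every marker of the list had counts in the descending aorta.

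Heart muscle markers were higher in the ascending aorta for 32 of 58 tested members (7.82% of all genes). Their summed levels were 3237 to 4847 against 2785 to 3400 CPM. Of the 65 listed 6 had no count in any descending library, Nkx2-5 and Csrp3 among them. Tnnt2, cardiac troponin T, stood at 118, 319, 275 and 206 CPM in ascending and 6.31, 6.61, 4.49 and 4.80 CPM in descending libraries, and Myh6, the atrial and adult heart myosin, at 26.8, 223, 164 and 87.4 against 0.272, 0.203, 1.75 and 0.474 CPM. Myl7 and Myl3, light chains of heart myosin, and Corin, the protease that activates natriuretic peptides, were likewise higher. Ascending library 3 was the highest and library 1 the lowest at Myh6 (named outside the rule) and Tnnt2, while Gata4 was lowest in library 1 and highest in library 5. The heart-adjusted fit called 21 mesothelial markers, all higher in the ascending aorta, and 8 heart muscle markers higher and 4 lower there. The 2 members higher in the descending aorta do not mark heart muscle alone: Gja5, connexin 40, also joins arterial endothelial cells (172 ± 22.96 against 57.4 ± 9.74 CPM) and Casq1 is the calsequestrin of skeletal muscle (140 ± 34.1 against 52.0 ± 12.7 CPM).

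**Figure D5:**
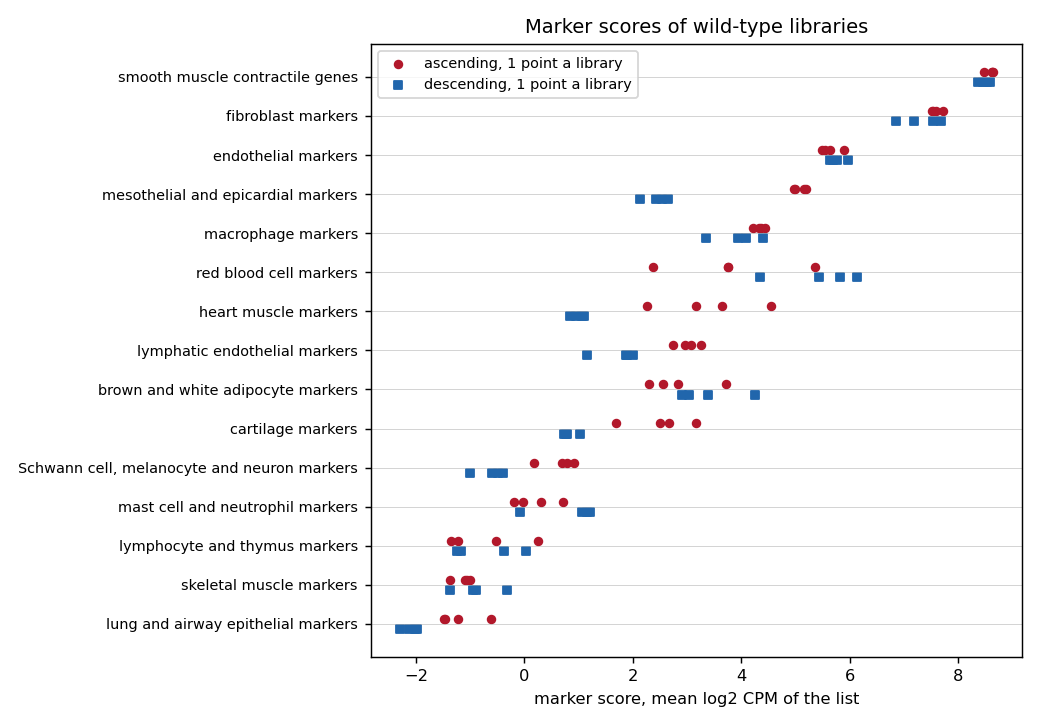
Marker scores (mean log2 CPM of each list) by library, circles for the ascending and squares for the descending aorta. Smooth muscle scores of 8.37 to 8.64 overlap between regions, while mesothelial (4.98 to 5.19 against 2.13 to 2.65) and heart muscle scores (2.27 to 4.54 against 0.84 to 1.09) do not.

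Endothelial markers went both ways. Of 30 tested members 15 were higher in the descending aorta (against 3.31% of all genes) and 5, Kdr, Flt1, Emcn, Robo4 and Eng, in the ascending aorta (7.82% of all genes). Vwf, the von Willebrand factor, stood at 969, 722, 906 and 654 CPM in descending and 455, 435, 325 and 386 CPM in ascending libraries, Clec14a at 134, 103, 119 and 93.9 against 58.8, 67.6, 55.3 and 48.7 CPM, and Sox17, a factor of arterial endothelium, at 29.1 ± 2.23 against 15.2 ± 4.36 CPM. Pecam1, named outside the rule, was 1.74-fold higher in the descending aorta (log2 fold change -0.81, SE 0.16, adjusted p = 0.00227), while Cdh5, VE-cadherin, also outside it, was not called (adjusted p = 0.18). On the ascending side stood the growth factor receptors Kdr (35.5, 32.9, 37.3 and 46.6 against 8.27, 3.10, 2.80 and 3.80 CPM) and Flt1 (45.7 to 81.3 against 22.9 to 29.1 CPM) and Emcn, endomucin, of capillaries and veins (42.7 to 74.2 against 8.74 to 17.8 CPM). Lymphatic markers were higher in the ascending aorta for 5 of 8 tested members, Prox1, Nts, Flt4, Mmrn1 and Pdpn. The endothelial score itself overlapped, at 5.48 to 5.89 against 5.63 to 5.97. The summed level of its markers did not, at 2792 to 3636 CPM in ascending and 4105 to 5620 CPM in descending libraries. Endothelial calls in the heart-adjusted fit were 2 on the ascending and 1 on the descending side.

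Cartilage markers were higher in the ascending aorta for 12 of 20 tested members (7.82% of all genes) and none in the descending aorta. Chad, chondroadherin, stood at 21.4, 41.6, 77.3 and 49.0 CPM in ascending and 4.63, 2.49, 2.97 and 1.90 CPM in descending libraries, Sox6 at 27.3 to 38.5 against 11.1 to 19.3 CPM, and Cnmd, chondromodulin, at 0.480 to 2.86 CPM with no descending count. The cartilage score was 1.69 to 3.16 against 0.73 to 1.02, lowest among the ascending libraries in library 1. The summed level of the listed markers overlapped, at 914 to 1310 CPM in ascending and 910 to 1256 CPM in descending libraries. Of 23 tested Schwann cell, melanocyte and neuron markers 12 were higher in the ascending aorta. They include Dct and Tyrp1, enzymes of melanin synthesis, Dct at 2.08, 5.39, 16.1 and 10.01 CPM in ascending libraries with no descending count and Tyrp1 at 0.694 to 3.79 CPM with 1. The nerve growth factor receptor Ngfr, the neuronal tubulin Tubb3, the transmitter Npy and the Schwann cell genes Mbp and Cdh19 were among the others. The heart-adjusted fit called none of the Schwann cell, melanocyte and neuron markers and 3 cartilage markers.

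Lists of other cells and processes with at most 3 calls in a direction follow. Of all genes, 7.82% were called higher in the ascending and 3.31% in the descending aorta, and some of these short lists exceed the latter share. None of 36 cell cycle genes, 19 circadian clock genes or 13 mast cell and neutrophil markers was called by edgeR, 3 of 69 nuclear oxidative phosphorylation genes (Cox8a, Cox6a1 and Cyc1) were, all higher in the descending aorta, and 1 of 30 immediate early and heat shock genes (Gadd45b) was, though not without ascending library 5 or descending library 3. The 3 became 21 without ascending library 3, and 0 without any of ascending libraries 1, 5 and 7 and descending libraries 1 and 7. Nearly all oxidative phosphorylation genes, called or not, had small negative log2 fold changes, with Cox8a at -0.27 and Cyc1 at -0.24. With the library number as a replicate block, 6 mast cell and neutrophil markers and 8 of 8 red blood cell markers were called higher in the descending aorta, against 0 and 1 (Bpgm) in the fit without it. The red blood cell call became 5 without ascending library 3. Adipocyte markers gave 1 call each way of 27 tested, Zic1 higher in the ascending and Cidea in the descending aorta (3 without ascending library 1 or descending library 7, and 0 without any of the other libraries). The replicate block gave 3 adipocyte calls each way. It also gave 1 clock gene higher in the ascending and 4 in the descending aorta, and 3 and 2 immediate early and heat shock genes. Of 10 skeletal muscle markers 3 were higher in the descending aorta, Casq1, Tnnt1 and Mybpc2. Of 21 lymphocyte and thymus markers 3 were higher in the descending aorta, the B cell genes Cd79b, Pax5 and Ms4a1, which became 0 without ascending library 5 and 1 without any of ascending library 7 and descending libraries 1 and 5. Of 62 list members that the count filter removed but that had at least 20 counts in all, none passed an exact permutation test after adjustment (smallest adjusted p = 0.11, smallest unadjusted p that 4 against 4 libraries allow = 0.0286, reached by 16, Ucma with 191 against 1 counts among them). The number of libraries limits this test.

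In C1041G/+ mice 1552 genes (9.92%) were called between the same regions, and 1079 were called in both genotypes in the same direction, which is 62.0% of the WT calls and 69.5% of the C1041G/+ calls. Msc, a basic helix-loop-helix factor chosen after its values were seen, was called in opposite directions (interaction adjusted p = 0.0506), at 1.16 ± 0.176 against 0.364 ± 0.110 CPM in WT and 0.208 ± 0.0675 against 0.590 ± 0.178 CPM in C1041G/+ mice. Of the 1741 WT calls, 1696 (97.4%) had the same sign in C1041G/+ mice. All 18 called Hox genes were called there too, with Hoxb8 at a log2 fold change of -11.12 and Hoxa7 of -7.76, and so were Gata4 (7.67), Hand2 (5.10), Tbx20 (3.05), Pax1 (-5.50), Ren1 (5.39), Adra2a (-3.93) and Sema3a (-3.22). Among the genes with the largest WT differences, Dct, Aqp8 and Pirt were not called in C1041G/+ mice (adjusted p = 0.0537, 0.0786 and 0.11), and no difference between the genotypes was called for them.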

How the data were processed

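RNA of mouse aorta was sequenced by the authors (fibrous tissue RNA kit, NEBNext Ultra libraries, per the labels' protocols). The deposited counts are whole numbers of reads per gene, unnormalised. The submitters' processing notes name fastp, STAR 2.6.1d and mm10, while no source used here gives the counter, its strand setting or the annotation version. Of 54532 identifiers 54495 have a symbol, positions come from GENCODE M21 (GRCm38, the same build), and promoter stretches from RefSeq (GRCm38.p6).

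The 16 untreated libraries (4 groups of 4) were fitted together with edgeR 4.0.16 in R 4.3.3: TMM scaling, filterByExpr by group, quasi-likelihood F test with robust dispersion, 12 residual degrees of freedom, a biological coefficient of variation of 15.9%, and Benjamini-Hochberg adjustment over 15645 genes at 0.05. Log CPM for scores used a prior count of 2. SE is the log2 fold change over the square root of F. Against a group with no count, folds use 3 counts over the group as the floor. For 1 to 3 counts the ratio has an exact 95% interval. Both cover counting error only. On counts simulated for the WT region comparison with 200 of 15645 genes changed, 79% of 2-fold and 89% of 4-fold changes were recovered, with 4.5% false among 176 calls.

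Same-numbered ascending and descending libraries deviated together (correlations of their deviations from the group means of 0.162 to 0.305, all 8 numbers), and the labels do not say what a number marks. The replicate block fit called 2424 genes. No 2 libraries were identical. Alternatives comprised 3 other scalings, 2 other count filters, the block, the 8 WT libraries alone with and without it, the heart muscle score as covariate, leaving out each WT library, and DESeq2 1.42.0. Those for the interaction and C1041G/+ counts, and list counts under the block, the heart score or without a library, were partly chosen after seeing the data.

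Named genes were the 15 largest log2 fold changes each way among called genes with a mean of at least 1 CPM in a region and no overlap, the same after leaving out tissue marker lists, the 10 each way with the highest CPM per kilobase among non-overlapping called genes of at least 2-fold difference outside those lists, up to 6 called members of each of 26 described lists by smallest p, and all tested Hox genes; unnamed models, pseudogenes and receptor segments were left out. The members and lists were chosen with earlier results of these data known. Treated libraries were not used here. The values of 2 list members are not reported here.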

Additional observations from a re-analysis of the deposited data

Results flagged for a closer look

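A library was set apart where its gap to the nearest of the other 3 libraries of its region exceeded Dixon's critical share of the region's range. This held for 30 of 404 pairs of a named gene and a region, and chance alone gives about 1 in 20. Many are genes with counts in few libraries, where a single count decides the gap.

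In the near-empty group these were Hoxb7 in ascending library 1 (0.05335 CPM), Hoxc6 and Hoxc4 in the same library (0.16 and 0.1067 CPM), Hoxa6 in ascending library 7 (0.04791 CPM), Hoxc5 in ascending library 5 (0.102 CPM) and Pax1 in ascending library 3 (0.4416 CPM). On the descending side they were Gata5 in library 1 (0.05441 CPM), A2m and Tyrp1 in library 7 (0.05272 CPM each), Tfap2a and Alx1 in library 3 (0.1017 CPM each), Fbn2 in library 3 (0.05083 CPM), and Hand2os1, which had 0 CPM in library 5 against counts in the other 3.

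Among genes with more counts, H19 was low in ascending library 1 (5.015 CPM), Bmp3 was low in ascending library 3 (44.91 CPM), and Myl7, Inmt and Mfng were high there (80.42, 77.02 and 12.28 CPM). Ascending library 5 was high for Des (172.6 CPM) and Adra2a (1.631 CPM) and low for Alx1 (0.7647 CPM).

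Descending library 5 was high for Casq1 (190.6 CPM) and low for Igfbp3 (3.146 CPM) and Upk3b (1.981 CPM), and library 7 was low for Flt1 (22.93 CPM), Hoxa10 (2.899 CPM) and Isl1 (7.855 CPM). Library 3 was low for Hoxc4 (1.881 CPM) and high for Hoxd9 (1.525 CPM), and library 1 was low for Hoxb5 (11.26 CPM).

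Of the marker scores, smooth muscle was low in ascending library 3 (8.484), lymphatic endothelium in descending library 5 (1.164), and mast cells and neutrophils in descending library 5 (-0.080).

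Kcnj15 differed in its region effect between genotypes, with an interaction of -3.968 (log2, WT minus C1041G/+, edgeR quasi-likelihood test, adjusted p = 8.23e-07).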

How the results depend on the processing

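Counts of called genes kept their size, within 1.5 times, under all alternatives run except those given here. The heart muscle score as covariate cut the WT region calls from 1741 to 355 (ascending 1223 to 285, descending 518 to 70, at least 2-fold 971 to 333) and the C1041G/+ calls from 1552 to 537. The score differs by region, so part of the region effect is fitted as score. The replicate block raised descending calls from 518 to 857, and the WT calls to 2424, which is within 1.5 times. The interaction count of 1 was 6 with no count filter, 13 with the replicate block, 2 with the heart score, 38 with DESeq2, and 1 to 10 with 1 WT library left out, 10 without ascending library 1. The cause was not tested. Without 1 library, WT calls ranged from 1409 to 1782.

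Of 202 named genes 187 were called, and 0 changed direction under any alternative. Of the called genes 88 kept the call under all 18 alternatives and 92 lost it only with the heart score. Besides Foxd2os, Dll4, Agtr1a and Bmp6, treated above, Csrp3 lost its call in the 8 WT libraries alone, Aqp8 without the count filter, and Tgfbi in the 8 WT libraries with the block. For the 62 list members removed by the count filter, the exact permutation test is limited by the number of libraries.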
